A study of Mus musculus with 32 samples.

Results

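The neutrophil and acute inflammation genes described here were S100a8, S100a9, Csf3r, Cxcr2, Ly6g, Retnlg, Il1b, Il1a, Il6 and Ptgs2, 10 of the 50600 genes measured. They were chosen by name, through the Ensembl identifiers that GENCODE pairs with these symbols. Earlier results of these data were known, but no rule on the values of these genes was applied. They were measured in 32 primary mouse melanomas, by sequencing of polyadenylated RNA, to compare tumours that express E-cadherin with tumours that lack it in both sexes. The 8 Ecad male and 8 Ecad female tumours carried Tyr::NrasQ61K, Cdkn2a-/+ and the floxed Cdh1F/F alleles, where Cdh1 encodes E-cadherin. The 8 ΔEcad male and 8 ΔEcad female tumours shared those alleles and carried 1 more transgene, which the labels write as Tyr::NRAS/° and the methods of the study describe as a Cre recombinase under the tyrosinase promoter. Both the oncogene and the recombinase were thus driven in melanocytes, and skin, stroma and leukocytes of a ΔEcad tumour keep Cdh1. The mice were on the C57BL/6J background and untreated as far as the labels say, and ages were not given in the sources used here.

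Neutrophils leave the blood for damaged tissue when resident cells release interleukin 1, which drives local production of CXC chemokines and of granulocyte colony-stimulating factor. S100a8 and S100a9 encode the subunits of calprotectin, which fills the neutrophil cytoplasm and is also made by keratinocytes at wound edges and in inflamed skin. Interleukin 6 and the prostaglandins made by the Ptgs2 product belong to the same acute response, and can come from leukocytes, fibroblasts and tumour cells alike.

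Total counts per tumour ranged from 24036333 to 63923086. Levels are in TPM, a unit that corrects read counts for gene length and library total. Median Cdh1 was 144.56 TPM in males and 30.56 TPM in females with the Ecad genotype, 3.29 TPM in ΔEcad males and 46.7 TPM in ΔEcad females, with ranges that overlapped. Melanocytic marker genes were high in 31 of 32 tumours and near the floor in ΔEcad male 7, whose 7 markers summed to 31.47 TPM against at least 5773 in every other tumour. The library labelled ΔEcad male 2 went against its label, with 0 counts from Y-linked genes and with Xist at 6.41 TPM, where the other males had no more than 0.2 TPM. It was kept in its group, and leaving it out changed no count of called genes among the 10. ΔEcad female 3 stood apart: it had the lowest score of all 32 tumours for the macrophage, monocyte, T cell, B cell and red blood cell marker lists. The labels hold no histology and no record of ulceration, so skin content and ulceration-like change were read only from marker genes.

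The 250 bases before the RefSeq transcription start of each gene were searched on both strands for 4 short patterns bound by factors of the acute response. They were a kappa-B type pattern, a C/EBP type pattern TTNNGNAA, an AP-1 type pattern TGANTCA and an ETS type pattern GAGGAA, where N is any base. A C/EBP type match lay upstream of 8 of the 10 genes, against 36.8% of 32851 RefSeq promoters. An ETS type match lay upstream of 6, against 23.3%. The rarer patterns had few matches, with a kappa-B type match upstream of Csf3r and Il6, against 1.21%, and an AP-1 type match upstream of Il1a and Il6, against 6.75%. A match is a description of letters and not a bound site. The upstream bases of the calprotectin genes and of 3 mediator genes are shown because the results turn on them, from RefSeq on GRCm38.p6, read along the strand of the gene, with matches in capitals. For S100a8 the stretch ends before the GENCODE start of the gene, which lies 93 bases upstream of the RefSeq start.
S100a8 (chr3:90668821-90668977, plus strand): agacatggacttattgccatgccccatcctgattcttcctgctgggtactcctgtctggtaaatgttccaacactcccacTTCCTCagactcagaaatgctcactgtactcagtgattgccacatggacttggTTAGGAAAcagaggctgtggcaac
S100a9 (chr3:90695722-90695971, minus strand): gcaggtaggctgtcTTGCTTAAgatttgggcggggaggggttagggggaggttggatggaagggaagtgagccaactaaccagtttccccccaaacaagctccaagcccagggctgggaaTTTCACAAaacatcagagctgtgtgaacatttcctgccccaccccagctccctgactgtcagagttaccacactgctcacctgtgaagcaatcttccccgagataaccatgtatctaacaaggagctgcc
Il1b (chr2:129371140-129371389, minus strand): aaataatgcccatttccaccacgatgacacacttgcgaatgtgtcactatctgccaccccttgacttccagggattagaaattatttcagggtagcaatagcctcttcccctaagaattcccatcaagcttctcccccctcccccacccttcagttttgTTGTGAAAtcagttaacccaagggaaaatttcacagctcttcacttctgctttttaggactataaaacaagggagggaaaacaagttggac
Il6 (chr5:30012864-30013113, plus strand): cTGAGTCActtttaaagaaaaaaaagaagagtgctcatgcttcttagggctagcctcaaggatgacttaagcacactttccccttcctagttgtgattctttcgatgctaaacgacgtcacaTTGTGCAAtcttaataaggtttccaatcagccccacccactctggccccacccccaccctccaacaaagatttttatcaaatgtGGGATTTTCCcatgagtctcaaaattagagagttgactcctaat
Ptgs2 (chr1:150099781-150100030, plus strand): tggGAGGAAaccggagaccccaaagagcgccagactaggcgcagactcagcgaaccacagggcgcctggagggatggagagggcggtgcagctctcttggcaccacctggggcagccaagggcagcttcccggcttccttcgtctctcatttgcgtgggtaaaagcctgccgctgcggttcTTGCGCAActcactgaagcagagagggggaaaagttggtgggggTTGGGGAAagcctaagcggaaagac
Il6 was the only one of the 10 with a C/EBP, an AP-1 and a kappa-B type match in that window. S100a8 had a C/EBP type match and a pair of ETS type matches, of which 1 lies in the bases shown, S100a9 a pair of C/EBP type matches, and Ptgs2 an ETS and a pair of C/EBP type matches. Il1b had a single C/EBP type match.

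S100a8 and S100a9 had the highest medians of the 10 genes. S100a8 (ENSMUSG00000056054, chromosome 3, 90668978 to 90670035, GRCm38) had a lowest, median and highest level of 28.21, 71.89 and 1913.36 TPM in Ecad males, and of 2.19, 20.47 and 2137.43 TPM in Ecad females. It had 7.83, 49.63 and 972.63 TPM in ΔEcad males and 1.11, 166.8 and 730.06 TPM in ΔEcad females. The 4 groups overlapped along nearly their whole range, and single tumours set each maximum: Ecad male 4, Ecad female 4, ΔEcad male 4 and ΔEcad female 6. S100a9 (ENSMUSG00000056071, chromosome 3, 90692632 to 90695721), the neighbour and partner of S100a8, had 36.33, 105.7 and 3340.9 TPM in Ecad males, and 1.73, 37.87 and 6258.07 TPM in Ecad females. It had 11.63, 94.2 and 2470.44 TPM in ΔEcad males and 0, 282.9 and 1355.76 TPM in ΔEcad females. The same 4 tumours held the group maxima, and ΔEcad female 3 held the minimum of both genes. S100a9 exceeded S100a8 in 27 of 32 tumours, with a median TPM ratio of 1.64, so the pair kept close proportions over a range of more than 3 orders of magnitude. In bulk tumours, fewer cells of a type and less RNA per cell cannot be told apart for any of these levels.

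The receptor and marker genes of neutrophils were far lower. Csf3r (ENSMUSG00000028859, chromosome 4, 126024550 to 126044440), the receptor of granulocyte colony-stimulating factor, had 5.14, 8.98 and 19.34 TPM in Ecad males, and 0.14, 3.95 and 204.18 TPM in Ecad females. It had 1.67, 7.41 and 105.43 TPM in ΔEcad males and 0, 13.67 and 27.37 TPM in ΔEcad females. Ecad males were the most even group, and the spread in Ecad females came from both ends, since Ecad female 4 exceeded the next tumour of its group, at 25.34 TPM, while others were below 1 TPM. Cxcr2 (ENSMUSG00000026180, chromosome 1, 74153989 to 74161246), the chemokine receptor that guides neutrophils to CXC chemokines, had group medians from 0.35 TPM in Ecad females to 3.48 TPM in ΔEcad females and a highest level of 32.73 TPM. Retnlg (ENSMUSG00000022651, chromosome 16, 48872621 to 48874496), a resistin-like secreted protein of mature neutrophils, had group medians from 2.21 TPM in Ecad females to 7.88 TPM in Ecad males, and reached 585.06 TPM in Ecad female 4 and 175.1 TPM in ΔEcad male 4. Ly6g (ENSMUSG00000022582, chromosome 15, 75155240 to 75159126), the surface antigen used to sort mouse neutrophils, was at or under 3 counts in 18 of 32 tumours and at 0 in 8, where a count of 0 allows up to 3. Its highest levels were 9.13 TPM in Ecad female 4 and 3.8 TPM in ΔEcad male 4, and it was the only one of the 10 that failed the filter on low counts. Ly6g and Retnlg belong to families of similar genes, and how reads shared between such genes were counted was not given in the sources used here.

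Genes of neutrophil granules and receptors other than the 10 were uneven across tumours. Mpo and Elane, which encode granule enzymes made in the bone marrow, had medians of 0.09 and 0.085 TPM and maxima of 0.96 and 2.73 TPM. Other granule genes were higher, with Prtn3 at a median of 4.27 TPM and at most 38.59 TPM, Camp at most 23.74 TPM and Ngp at most 41.33 TPM, all in ΔEcad female 7. Fpr1, a receptor for bacterial peptides, reached 105.84 TPM in Ecad female 4 and 60.74 TPM in ΔEcad male 4 from a median of 0.78 TPM. Mmp8, the neutrophil collagenase, reached 52.24 and 38.35 TPM in the same tumours from a median of 1.75 TPM, whereas Cxcr1, another chemokine receptor, was highest in Ecad male 5 at 27.55 TPM, against 7.59 and 9.32 TPM in those tumours.

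Among the acute mediators, Il1b was the most uneven. Il1b (ENSMUSG00000027398, chromosome 2, 129364570 to 129371139), the secreted form of interleukin 1, had 0.47, 6.74 and 15.99 TPM in Ecad males, and 0, 1.31 and 908.64 TPM in Ecad females. It had 1.78, 4.29 and 372.12 TPM in ΔEcad males and 0, 2.29 and 60.56 TPM in ΔEcad females. Its median over all tumours was 2.71 TPM, so the highest tumour lay 335.3-fold above it. Il1a (ENSMUSG00000027399, chromosome 2, 129299610 to 129309972), the form held inside cells and released on damage, had group medians from 1.29 TPM in Ecad females to 5.36 TPM in Ecad males and a highest level of 84.8 TPM. Il1b overlaps the gene Il1bos and Il1a overlaps Gm14023, and the counting was not stated to use the strand, so part of the reads of either pair may belong to the partner.

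Il6 (ENSMUSG00000025746, chromosome 5, 30013114 to 30019981), the cytokine that induces the acute phase response, was low and the least spread. It had 0.26, 1.02 and 2.39 TPM in males and 0.19, 0.52 and 5.59 TPM in females with the Ecad genotype. With the ΔEcad genotype it had 0.26, 0.77 and 7.46 TPM in males and 0.47, 1.45 and 6.58 TPM in females. Its highest tumour lay 7.98-fold above its median, and it was the only one of the 10 whose highest tumour was not Ecad female 4. Ptgs2 (ENSMUSG00000032487, chromosome 1, 150100031 to 150108227), the inducible cyclooxygenase, had 0.38, 0.745 and 6.46 TPM in Ecad males, and 0, 0.925 and 82.43 TPM in Ecad females. It had 0.1, 1.24 and 42.72 TPM in ΔEcad males and 0.17, 1.04 and 16.81 TPM in ΔEcad females. The group medians of Ptgs2 lay close together and the 3 highest tumours came from 3 different groups. Ptgs2 was below the constitutive cyclooxygenase Ptgs1 in most tumours, with a median TPM ratio of 0.159, and exceeded it in 6 of 32 tumours, by 55.3-fold in Ecad female 4 and 12.8-fold in ΔEcad male 4.

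**Figure D1:**
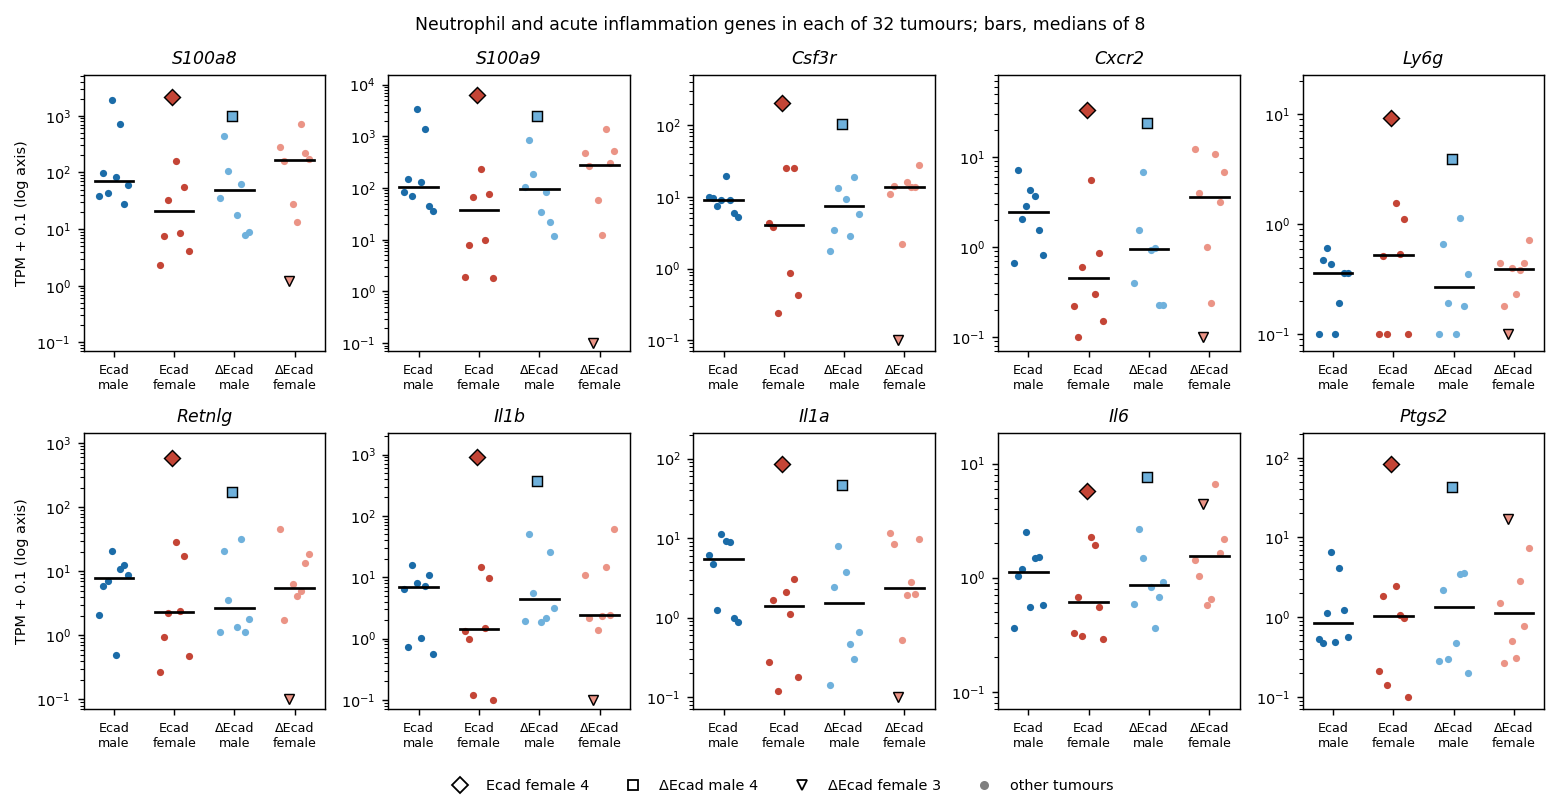
Level of each of the 10 genes in 32 tumours by group, in TPM + 0.1 on a log axis, with each point a tumour and each bar the median of 8 tumours. Ecad female 4 (diamond) and ΔEcad male 4 (square) lie at or near the top of every panel, ΔEcad female 3 (triangle) lies at the floor for 7 genes and among the highest for Ptgs2 and Il6, and the other tumours of the 4 groups overlap.

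A pair of tumours of different genotype and sex, Ecad female 4 and ΔEcad male 4, dominated most of the 10 genes. They were the highest and second highest of 32 tumours for 7 genes, namely Csf3r, Cxcr2, Ly6g, Retnlg, Il1b, Il1a and Ptgs2, whereas 1.07% of the 17717 genes that passed the filter had that pair on top. Together they held 82.9% of the summed TPM of Il1b, 73.6% of that of Retnlg and 67.6% of that of Ptgs2. The share was 36.0% for S100a8, 46.9% for S100a9 and 25.2% for Il6, the 3 genes with another tumour among the top 2. For S100a8 and S100a9 that tumour was Ecad male 4, and for Il6 it was ΔEcad female 6.

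The same pair was on top for 15 of 33 other neutrophil genes and for 4 of 10 neutrophil attractants and growth factors. Cxcl2, a chemokine bound by the Cxcr2 product, reached 700.73 TPM in Ecad female 4 and 326.51 TPM in ΔEcad male 4 from a median of 1.23 TPM. Csf3, the ligand of the Csf3r product, reached 36.34 and 12.06 TPM from a median of 1.17 TPM. The pair was on top for 4 of 32 genes of the interleukin 1, interleukin 6 and prostanoid axis, for 1 of 12 wound-edge epidermis genes, for 0 of 18 ulcer and wound inflammation genes, and for 0 genes in each marker list of other cell types.

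These 2 tumours differed from each other in their other cell content. List scores are means of log2 CPM, the counts scaled to the library total, over a list. The keratinocyte score was -3.71 in Ecad female 4, rank 30 of 32, and -0.74 in ΔEcad male 4, rank 21. The macrophage score was 3.89 in Ecad female 4, rank 28, and 7.12 in ΔEcad male 4, rank 4, and the T cell score was -2.08 and 2.88. Both tumours were thus low in epidermal genes, and they shared high neutrophil genes without sharing high macrophage or T cell genes.

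Ecad male 4 combined the second highest S100a8 and S100a9 with the highest wound-edge score, 6.65, and the highest ulcer and wound inflammation score, 5.90, of all 32 tumours. Its Csf3r level was 8.9 TPM, near the median of all tumours, so its S100a8 exceeded its Csf3r 215.0-fold on the TPM scale. The S100a8 to Csf3r ratio ranged from 0.419 in ΔEcad male 7 to 231.3 in Ecad female 3, with a median of 10.47 over the 31 tumours with Csf3r above 0. Calprotectin RNA was therefore not in fixed proportion to the RNA of this neutrophil receptor.

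ΔEcad female 3 showed the opposite extreme. It had 0 counts for 7 of the 10 genes, namely S100a9, Csf3r, Cxcr2, Ly6g, Retnlg, Il1b and Il1a, where 7.12% of the genes tested had 0 counts. It had 11 counts of S100a8, or 1.11 TPM. Its red blood cell markers summed to 0 TPM, and the part of low blood cell content in these values was not tested. In the same tumour Ptgs2 was surpassed only by Ecad female 4 and ΔEcad male 4 at 16.81 TPM, Il6 was 4.31 TPM, and the chemokine gene Cxcl1 was highest of all at 249.67 TPM, though 12.1% of the genes tested had their highest level there.

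**Figure D2:**
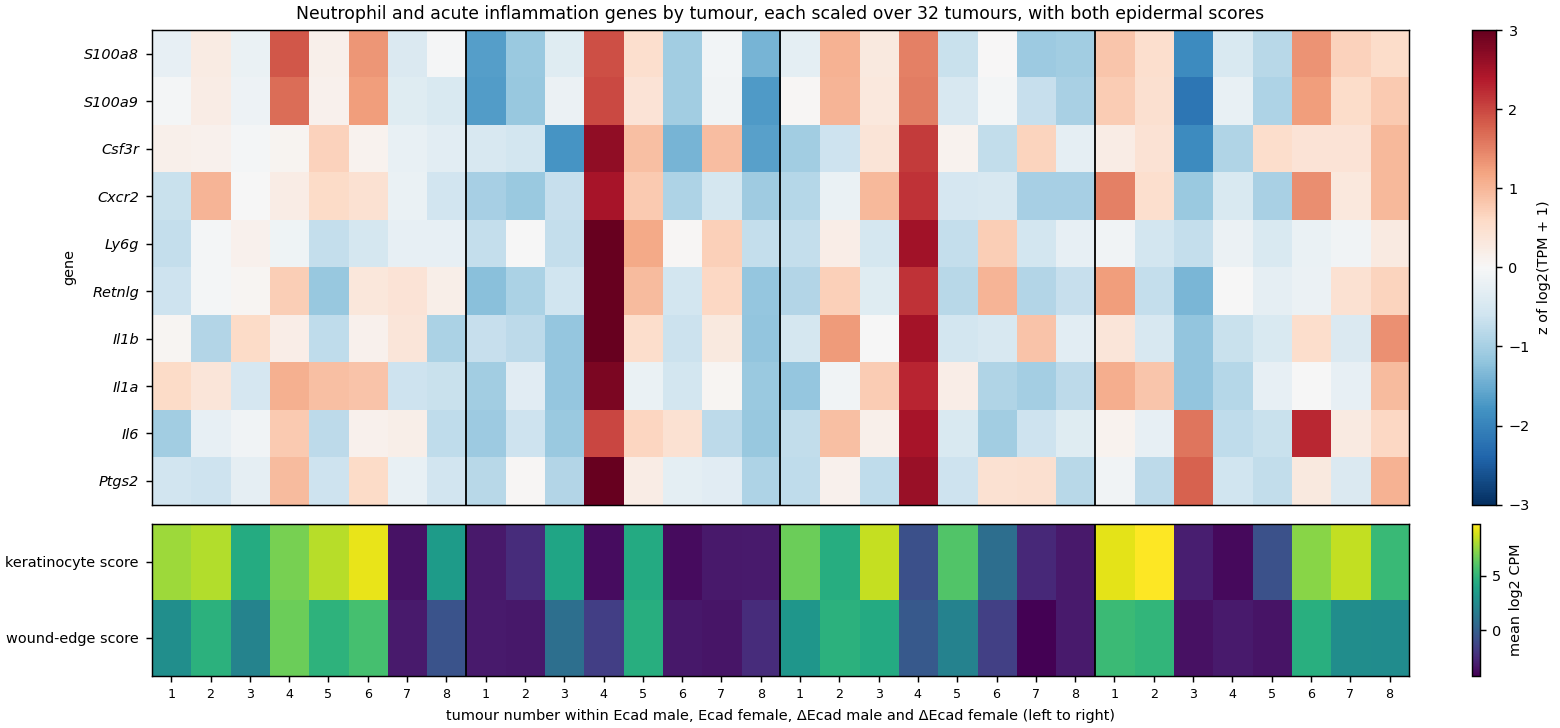
Standardised log2(TPM + 1) of the 10 genes in each of 32 tumours, with columns grouped by genotype and sex, above the keratinocyte and wound-edge scores of the same tumours, with colours that saturate at 3 SD from the mean of a gene. Ecad female 4 and ΔEcad male 4 are high for most genes with low scores, Ecad male 4 is high for S100a8 and S100a9 with the highest wound-edge score, and ΔEcad female 3 is low except for Il6 and Ptgs2.

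Over the 32 tumours all 45 pairs of the 10 genes had a Spearman correlation above 0, with a median of 0.56. The points share the library of each tumour, and no test was made. The highest was 0.98 for S100a8 and S100a9 and the lowest 0.259 for Csf3r and Ptgs2. S100a8 followed Cxcr2 at 0.882, Ly6g followed Retnlg at 0.802, and Il1a followed Il1b at 0.474.

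Outside the 10 genes, the genes most alike by Spearman correlation over the 32 tumours were partly shared. Hcar2, a receptor of hydroxy acids, was nearest to S100a8, S100a9 and Cxcr2, at 0.909, 0.912 and 0.876, and second nearest to Il1a, at 0.887. Csf3 was among the nearest 5 of S100a8, S100a9, Retnlg and Il6. S100a9 was next nearest to Il1r2, the decoy receptor of interleukin 1, at 0.879. For Csf3r the nearest was Fgr, a kinase of myeloid cells, at 0.89, and for Retnlg it was Csf3 at 0.835 followed by the neutrophil antigen gene Cd177 at 0.823. Il1b was nearest to Cxcl2 at 0.836 and Trem1, an amplifying receptor of myeloid cells, at 0.831. Il6 was nearest to Cxcl1 at 0.795, and Ptgs2 to the matrix genes Lox at 0.796 and Tnc at 0.792. With the wound-edge score the Spearman correlation was 0.743 for S100a8, 0.737 for S100a9, 0.672 for Cxcr2 and 0.597 for Il1a, and between -0.049 and 0.271 for the other 6 genes. With the keratinocyte score it was 0.547, 0.534, 0.485 and 0.497 in the same order, and between -0.273 and 0.258 for the other 6 genes. With the macrophage score it was highest for Csf3r, at 0.615, and Il1a, at 0.452, and 0.274 for S100a8. S100a8 had 0.525 with the fibroblast score, 0.538 with the endothelial score and 0.816 with the ulcer and wound inflammation score.

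The first comparison asked whether loss of E-cadherin was accompanied by a change of these genes in females. None of the 9 genes tested was called, where called means that edgeR's quasi-likelihood test gave an adjusted p under 0.05 with a log2 fold change beyond 1 in either direction, against 1.2% of all genes tested. At an unadjusted p under 0.05 there was 1 of 9, Il1b, against 15.3% of all genes, and DESeq2 and both limma fits also called 0. The fitted log2 fold change of ΔEcad over Ecad females was below 0 for 8 of 9 genes, with a median of -1.30 against -0.02 over all genes tested. Il1b had -3.36 (SE 1.53, edgeR adjusted p = 0.271), Retnlg -2.66 (SE 1.32, adjusted p = 0.334) and S100a8 -0.42 (SE 1.24, adjusted p = 0.925).

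Those negative values rested on Ecad female 4. Without that tumour all 9 fitted log2 fold changes were above 0, with a median of 1.86, and that of Il1b was 1.32 with an edgeR adjusted p of 0.688. Those of S100a8 and S100a9 were 2.35 and 2.63. None was called without it either, the smallest adjusted p being 0.343. The group medians pointed the same way as the fit without Ecad female 4 for S100a8, S100a9, Csf3r, Cxcr2, Retnlg, Il1b, Il1a, Il6 and Ptgs2, all higher in ΔEcad than in Ecad females. Without ΔEcad female 3, 7 of 9 fitted values were below 0, with a median of -1.10.

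In males, 0 of 9 genes were called by edgeR, limma or DESeq2 between ΔEcad and Ecad tumours, against 0% of all genes in the edgeR test, and none had an unadjusted p under 0.05, against 10.2% of all genes. The fitted log2 fold change was above 0 for 7 of 9, with a median of 0.83 against 0.11 over all genes, and that of Il1b was 3.08 (SE 1.52, edgeR adjusted p = 0.489). Here ΔEcad male 4 set the direction. Without it 6 of 9 values were below 0, the median was -0.17 and the value of Il1b was 1.36.

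Between the sexes, 0 of 9 genes were called by edgeR in Ecad tumours, against 0.0508% of all genes, and 2 had an unadjusted p under 0.05, against 16% of all genes. These were Il1b, higher in females by 4.03 on the log2 scale (SE 1.58, edgeR adjusted p = 0.199), and Retnlg, by 3.02 (SE 1.34, adjusted p = 0.257). Without Ecad female 4 all 9 values were below 0, with a median of -1.08, and that of Il1b was -0.65. Those of S100a8 and S100a9 were then -3.30 and -3.53. DESeq2 called 1 gene, S100a9, with a log2 difference of -3.34 (SE 1.07, adjusted p = 0.0368), against 0.11 in edgeR with all tumours. In this comparison DESeq2 called 1023 of all 17717 genes. The sign of S100a9 thus differed between the tools. The DESeq2 value was near the edgeR value without Ecad female 4, and the cause of the difference was not tested.

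In ΔEcad tumours 0 of 9 genes were called by edgeR, limma or DESeq2 between the sexes, against 0.0395% of all genes in the edgeR test, and none had an unadjusted p under 0.05, against 8.81% of all genes. The values were below 0 for 7 of 9, with a median of -0.61, and above 0 for 8 of 9 without ΔEcad male 4, with a median of 0.64.

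The interaction of genotype and sex tests whether the genotype difference itself differed between females and males. It was called for 0 of 9 genes by edgeR, limma or DESeq2, against 0% of all genes in the edgeR test, and 2 had an unadjusted p under 0.05, against 17.7% of all genes. Il1b had the smallest adjusted p of the 9, 0.101, with an interaction of -6.44 on the log2 scale (SE 2.16), and Retnlg had -4.35 (SE 1.83, edgeR adjusted p = 0.199). Without both Ecad female 4 and ΔEcad male 4, left out together after the data had been seen, 8 of 9 interactions were above 0, with a median of 2.05 in place of -1.70. A single test for any difference among the 4 groups called 0 of 9 genes in edgeR, against 0.316% of all genes, and 1 of 9, Il1b, had an unadjusted p under 0.05, against 15.8%.

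**Figure D3:**
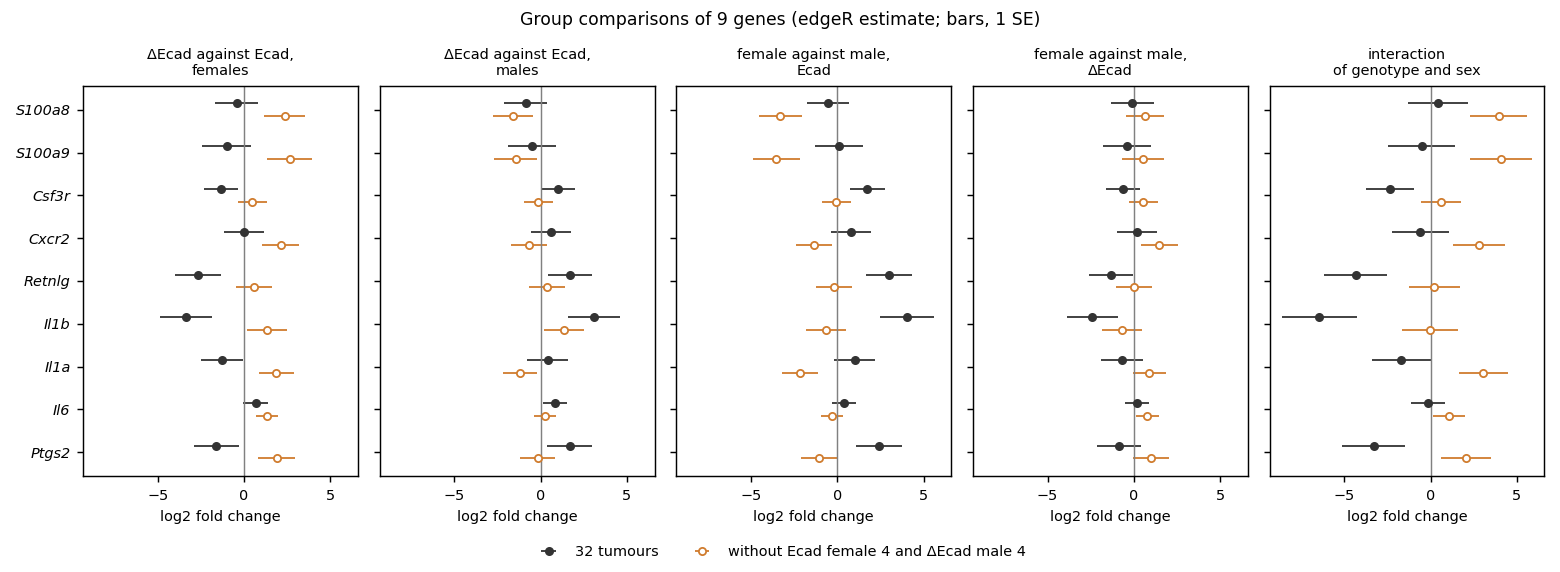
Fitted log2 difference of 9 genes in 4 group comparisons and in the interaction of genotype and sex, with all 32 tumours (filled) and without Ecad female 4 and ΔEcad male 4 (open), and with bars of 1 SE. With all tumours the values of Il1b lie farthest from 0 in each panel, and in every panel most values are on the other side of 0, or closer to it, without the 2 tumours.

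The other genes of the pathway gave few group differences. In the 4 pairwise comparisons and the interaction, 0 of 29 other neutrophil genes, 0 of 7 attractants and growth factors, 0 of 32 genes of the interleukin 1, interleukin 6 and prostanoid axis and 0 of 17 ulcer and wound inflammation genes were called by edgeR, the tool in which these lists were counted. At an unadjusted p under 0.05 the counts over these 5 comparisons ran from 1 to 8 of 29, from 0 to 3 of 7, from 2 to 17 of 32 and from 0 to 4 of 17, where the share of all genes ran from 8.81% to 17.7%. The 17 of 32 belonged to ΔEcad against Ecad females, with 15.3% of all genes, where the axis had a median log2 fold change of 0.84, and were led by Ptgs1, the constitutive cyclooxygenase, at 3.00 (SE 0.80, edgeR adjusted p = 0.0517) and Ptger4, a prostaglandin E2 receptor, at 2.51 (SE 0.73, adjusted p = 0.0624). Skin content varied between these groups as given next, and its part in these values was not tested. The test for any difference among the groups called 1 neutrophil gene, Ltf, the lactoferrin gene, at 986.37 TPM in ΔEcad female 8 and at most 6.54 TPM elsewhere, and 1 ulcer and wound inflammation gene, Saa2, an acute phase protein.

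Skin content differed widely between tumours, and between groups in its median. The keratinocyte score, the mean log2 CPM of 12 epidermal genes such as Krt5, Krt10 and Lor, had medians of 7.31 and -3.16 in Ecad males and females and of 2.70 and 6.28 in ΔEcad males and females. All 12 of its genes were measured, with a summed level of 8.77 to 25240 TPM in Ecad males and 5.41 to 1959 TPM in the females of that genotype, and of 7.02 to 16170 TPM and 10.63 to 40510 TPM in ΔEcad males and females. The wound-edge score, the mean over 12 genes that epidermis turns on when injured or inflamed, such as Krt6a, Krt16 and Sprr1b, had medians of 3.74, -2.78, 0.87 and 2.63 in the same order. The scores had a Spearman correlation of 0.853 with each other over the 32 tumours, and a Pearson correlation of 0.926 after group means were taken out, so they are largely 1 measure of epidermis in the sample. Several wound-edge genes belong to families of near-identical copies. Stfa1, in the wound-edge score, is a relative of Stfa2l1, which is in the list of other neutrophil genes. The wound-edge score is therefore not fully separate from neutrophil genes. The score of Krt6a, Krt6b and Krt16, given below, was the only one fitted without Stfa1.

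No gene of the 10 was called on the keratinocyte score, as a slope within groups, where called means an adjusted p under 0.05. The edgeR test called 11.5% of all genes, 7.72% with a positive slope, and at an unadjusted p under 0.05 there were 0 of 9, against 25.9% of all genes. Slopes ran from -0.27 log2 units per unit of score for Ptgs2 to 0.19 for S100a8 (SE 0.17, adjusted p = 0.520), and their median was -0.02. Limma on log2(TPM + 1) called 1, S100a9, limma voom 4 and DESeq2 1, Ptgs2, at -0.273 (adjusted p = 0.0196). In the same order these fits called 2007, 6150 and 3194 of all 17717 genes. Without Ecad female 4 and ΔEcad male 4 together, chosen after the data had been seen, edgeR called 4 slopes: Cxcr2 at 0.292 (adjusted p = 0.00414), S100a8 at 0.366 (0.00901), S100a9 at 0.380 (0.0157) and Il1a at 0.259 (0.0355). That fit called 2088 of all 17929 genes.

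On the wound-edge score 1 of 9 genes was called, S100a8, against 7.37% of all genes and 5.57% with a positive slope, and 3 of 9 had an unadjusted p under 0.05, against 20.1% of all genes. S100a8 rose by 0.516 log2 units per unit of score (SE 0.156, edgeR adjusted p = 0.0365). S100a9 had a slope of 0.555 (SE 0.187, adjusted p = 0.0678), Cxcr2 0.336 (SE 0.157, adjusted p = 0.222) and Il1a 0.329 (SE 0.175, adjusted p = 0.294), while the other 5 lay between -0.05 and 0.085. The calprotectin slopes were thus several times those of Csf3r, 0.053, and Il1b, 0.069, a difference between genes that was not tested.

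The call of S100a8 was near the threshold and depended on the genes of the score. With a score of Krt6a, Krt6b and Krt16 alone, chosen after the data had been seen, its slope was 0.249 (edgeR adjusted p = 0.264), and with a score without Slc2a1 and Gjb2 it was 0.425 (adjusted p = 0.0522). Slc2a1, a glucose transporter gene in the score, was itself highest in Ecad female 4 and ΔEcad male 4, at 334.74 and 331.14 TPM. The call was also lost, with slopes of 0.437 to 0.538, without any 1 of 8 tumours: Ecad male 4 (adjusted p = 0.0937), Ecad male 7 (0.0731), Ecad male 8 (0.0551), ΔEcad male 8 (0.0523), ΔEcad female 3 (0.0699), ΔEcad female 4 (0.0527), ΔEcad female 5 (0.0626) or ΔEcad female 6 (0.0555). S100a9 was called without Ecad female 4 (0.00435), ΔEcad male 4 (0.0137) or Ecad female 5 (0.0391), and Cxcr2 without Ecad female 4 (0.0228). With the macrophage score in the model S100a8 had a slope of 0.434 (adjusted p = 0.113). Ecad female 4 and ΔEcad male 4 were also left out together, after their high levels of these genes had been seen. S100a9 then had a slope of 0.558 (edgeR adjusted p = 0.000138) and Cxcr2 one of 0.418 (adjusted p = 0.000686). That fit called 1340 of all 17929 genes. Since the values of these genes guided the omission, no conclusion is drawn from these p-values.

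**Figure D4:**
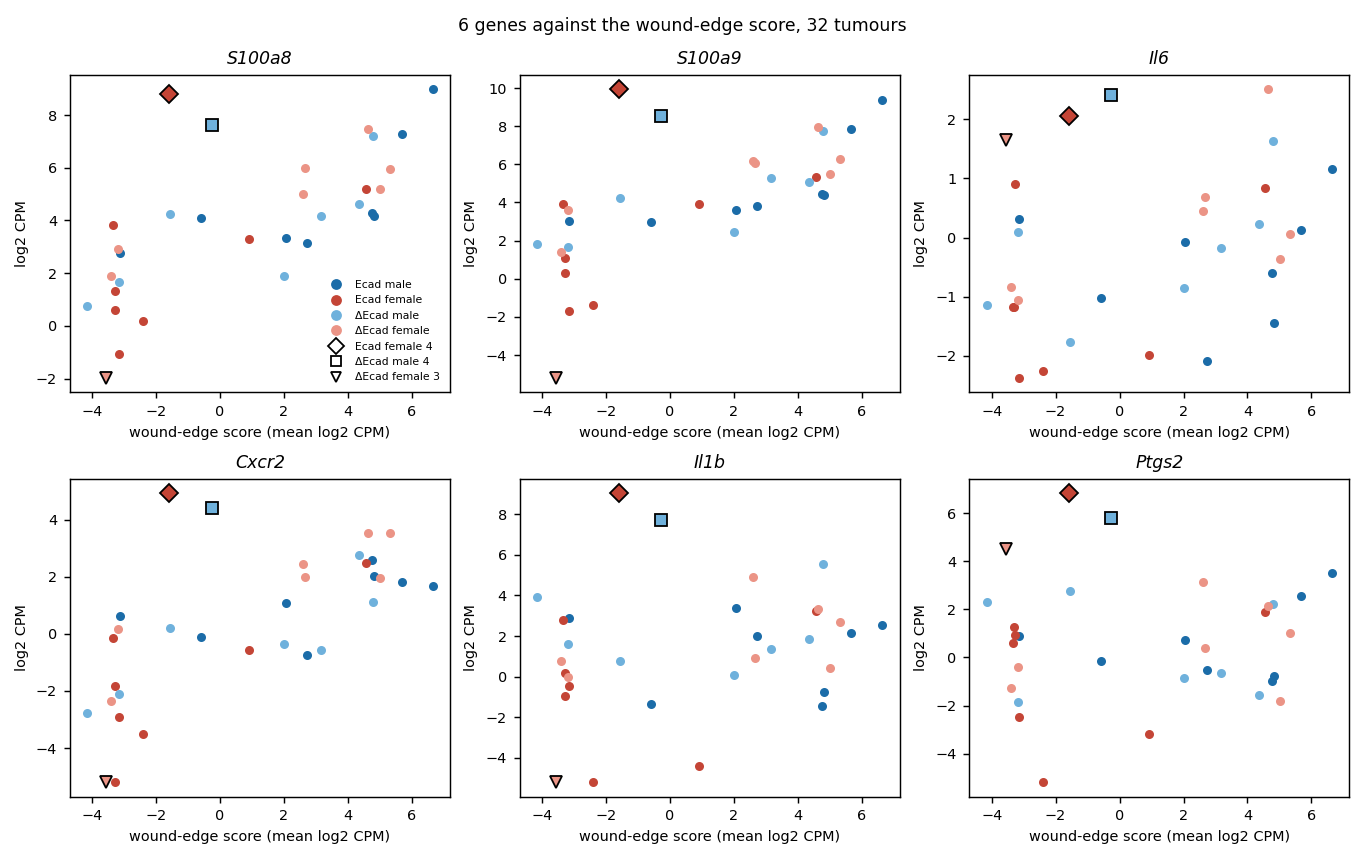
Level of 6 genes, in log2 CPM, against the wound-edge score in mean log2 CPM, with each point a tumour coloured by group and the same 3 tumours marked. S100a8 and S100a9 increase with the score in most tumours, and Ecad female 4 (score -1.58) and ΔEcad male 4 (score -0.26) lie far above the others of like score, most of all for Il1b.

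With both scores in 1 model, the slope on the wound-edge score compares tumours of like keratinocyte score. It was called for 3 of 9 genes, against 0.214% of all genes, that is 38 genes of 17717, or 0.203% with a positive slope and 0.0113% with a negative one. S100a9 rose by 1.54 log2 units per unit of score (SE 0.32, edgeR adjusted p = 0.0251), S100a8 by 1.24 (SE 0.26, adjusted p = 0.0275) and Il6 by 0.76 (SE 0.15, adjusted p = 0.0200). Uncalled values were 1.33 for Cxcr2 (adjusted p = 0.159), 1.49 for Il1b (0.228), 1.21 for Ptgs2 (0.152), 1.10 for Il1a (0.382), 0.85 for Retnlg (0.502) and 0.53 for Csf3r (0.657). All 9 values were above 0, with a median of 1.21 against -0.01 over all genes, and 8 of 9 had an unadjusted p under 0.05, against 8.38% of all genes.

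Of the other 35 genes called there, 8 are in the score itself, among them Sprr1b, Sprr2d, Krt16 and Stfa1. Many others were epidermal genes outside the score: Sprr2g, with the smallest p of all (slope 1.35, edgeR adjusted p = 5.55e-09), Sprr2i, Sprr2b, Rptn, Lce3b and Klk12. Each of these had a smaller p than any of the 10 genes. Also outside the score were Cxcl3, a ligand of the Cxcr2 product, with a slope of 2.13, and Acod1, the itaconate enzyme of activated myeloid cells, with 1.80. The collagenase gene Mmp13 had 1.26 and Chil1, a chitinase-like protein, 1.35. Of the lists, 1 of 29 other neutrophil genes (Acod1), 1 of 7 attractants and growth factors (Cxcl3), 1 of 17 ulcer and wound inflammation genes (Mmp13) and 0 of 32 genes of the interleukin 1, interleukin 6 and prostanoid axis were called by edgeR, and 16, 6, 7 and 10 of them had an unadjusted p under 0.05.

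The adjusted p of each of these 3 genes passed 0.05 without certain single tumours. S100a8 was not called without Ecad male 1 (adjusted p = 0.0569), Ecad male 4 (0.142), Ecad female 3 (0.056), Ecad female 4 (0.0767) or ΔEcad female 6 (0.0623). S100a9 was not called without Ecad male 4 (0.0907), Ecad female 4 (0.0693) or ΔEcad female 6 (0.0504), nor Il6 without Ecad female 4 (0.0519) or ΔEcad female 6 (0.0559). In these fits the slopes were 0.93 to 1.27 for S100a8, 1.14 to 1.61 for S100a9 and 0.69 to 0.70 for Il6, those without Ecad female 4 being the lowest of each. With a score of Krt6a, Krt6b and Krt16 they were 0.67 (adjusted p = 0.494), 0.78 (0.494) and 0.42 (0.380). With a score without Slc2a1 and Gjb2, edgeR called 2 of 9, and S100a8 was at 1.06 (adjusted p = 0.0555). Without Ecad female 4 and ΔEcad male 4 together, edgeR called 0 of 9, with slopes of 0.76 for S100a8 (adjusted p = 0.0928), 0.91 for S100a9 (0.0915) and 0.62 for Il6 (0.0994). Without ΔEcad female 3 as well it called 2 of 9, and Il6 was at 0.60 (adjusted p = 0.107).

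**Figure D5:**
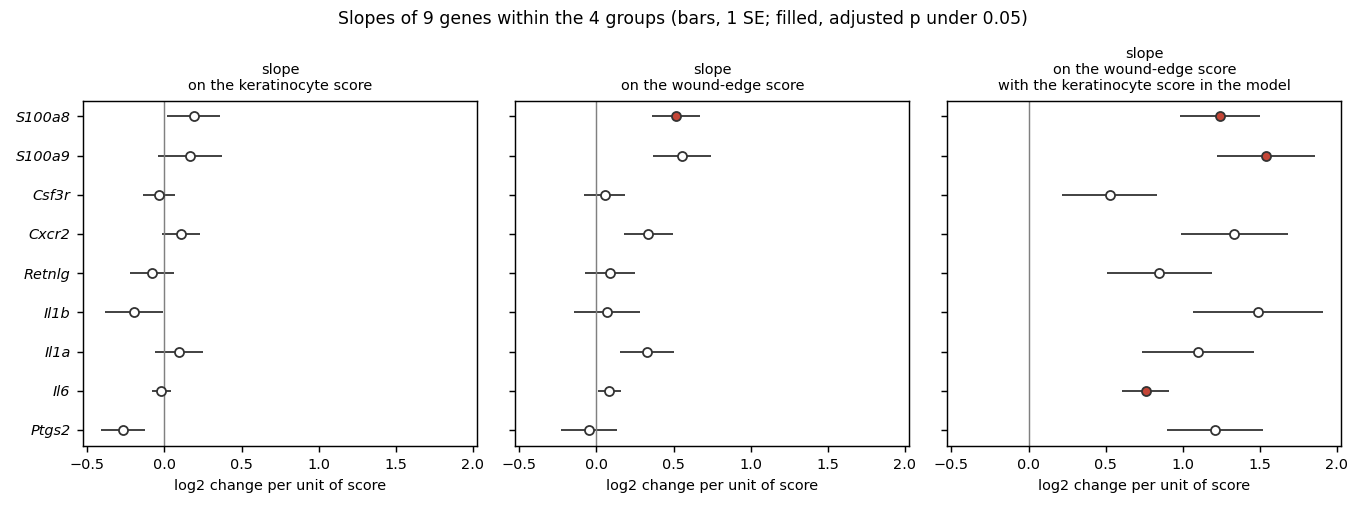
Slope of 9 genes on the keratinocyte score, on the wound-edge score, and on the wound-edge score with the keratinocyte score in the model, in log2 units per unit of score with bars of 1 SE and filled points where the adjusted p was under 0.05. Slopes on the keratinocyte score lie around 0, S100a8 and S100a9 stand highest on the wound-edge score, and all 9 slopes lie above 0 when both scores are in the model.

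On the single scores, few genes of the other lists were called. The keratinocyte slope was called for 6 of 32 genes of the interleukin 1, interleukin 6 and prostanoid axis, against 11.5% of all genes, Il36a and Il36b (annotated as Il1f6 and Il1f8), Il18, Pycard and Hpgd upwards and Il1rap downwards, and the wound-edge slope for 4, against 7.37% of all genes, Il36a at 1.07, Il36b at 1.02, Il36g (Il1f9) at 0.62 and Il18 at 0.24. Of 29 other neutrophil genes 1 was called on either score, Asprv1, at 0.67 and 1.00, which also encodes an epidermal protease. On the wound-edge score 0 of 7 attractants and growth factors were called by edgeR or had an unadjusted p under 0.05. Of 17 ulcer and wound inflammation genes 4 had an unadjusted p under 0.05 and 1 was called, Saa2, at 0.455. Of the marker lists of other cell types, 1 of 6 endothelial genes was called on the keratinocyte score.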

How the data were processed

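Polyadenylated RNA of 32 primary melanomas was sequenced by the authors with stranded TruSeq libraries. Reads were mapped with STAR to mm10 (GRCm38.p5, GENCODE M13), with FastQC 0.11.5 per the submitters' processing notes. The authors deposited raw counts per gene and TPM, which is scaled for gene length and library total. Batch correction was described where applicable, without naming these tumours; the deposited counts were whole numbers, and over 996 genes the count to TPM ratio followed 1 length per gene within 0.0698%. Symbols and coordinates came from GENCODE M21 (GRCm38), and promoters from RefSeq (GRCm38.p6). Protein sequences were not used here.

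Groups came from the labels. Nothing in the labels says which tumours share a litter. Tumours of different groups that shared a replicate number were not paired, since their deviations had a mean correlation of -0.000 over 48 pairs. The highest correlation between any 2 tumours was 0.990, and none was treated as a duplicate.

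Counts were tested with edgeR 4.0.16 in R 4.3.3 (two-sided quasi-likelihood test, robust, TMM factors, filterByExpr by group). A single model held the 32 tumours and 1 coefficient for each group, with Benjamini-Hochberg adjustment over 17717 genes. The common dispersion was 0.624. Calls needed an adjusted p under 0.05 and, between groups, an absolute log2 fold change over 1. Scores were mean log2 CPM with a prior count of 1, and slopes on them were fitted beside the group coefficients. The scripts were tested on simulated data with changes placed in genes of ΔEcad females. The test against Ecad females called 5.97% of changes of 1 log2 unit, 55.2% of changes of 2 and 90.9% of changes of 4. A gene that was not called may therefore still differ. Counting floors cover counting error only, since reads carry no molecular identifiers. Alternatives used limma 3.58.1, DESeq2 1.42.0, other scalings, filters and scores, a replicate block, and the omission of each tumour. Summaries used Python 3.11.15 with pandas 2.3.3.

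The 10 genes, the 18 gene lists and the tests were chosen with earlier results of these data known. Named were the 10 genes, the genes most like each by Spearman correlation, and list genes that were called or led their list. Cxcl2, Csf3, Cxcl1, Fpr1, Mmp8, Mpo, Elane, Prtn3, Camp, Ngp, Cxcr1 and Slc2a1 were named from the lists for their role, with values seen. Sprr2g, Sprr2i, Sprr2b, Rptn, Lce3b and Klk12, which are in no list, were named from the genes called with both scores, with values seen.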

Additional observations from a re-analysis of the deposited data

Results flagged for a closer look

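The 10 genes and the 2 scores were checked in each of the 4 groups for a tumour far from the other 7, and 3 of 48 groups of values held one, where chance gives about 1 in 20. Csf3r was far above the others in Ecad male 5, at 4.44 on the log2 CPM scale, where the other Ecad males lay between 2.91 and 3.62. Csf3r was far below the others in ΔEcad female 3, at -5.19, where the other ΔEcad females lay between 1.62 and 4.70. The keratinocyte score was far below the others in Ecad male 7, at -3.47, where the other Ecad males lay between 3.46 and 9.29. Ecad female 4 and ΔEcad male 4 were not among them for any gene, although they held the highest values of most genes.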

How the results depend on the processing

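Over 51 alternatives, 32 of which left out 1 tumour each, 3384 estimates of the 9 genes tested were set against the main fit. Of these, 3008 kept a call and its direction, or stayed uncalled within 1 SE of the main value. Another 45 lost a call, 40 gained one, and 290 uncalled estimates moved by more than 1 SE. A single called estimate reversed, that of S100a9 for female against male in Ecad tumours under DESeq2, -3.34. Of the estimates uncalled in both fits, 263 had another sign, and they are counted among the 3008 or the 290. In the group comparisons 0 of the 10 genes were called under every alternative except for that 1 by DESeq2. There DESeq2 called 1023 of all 17717 genes.

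For the keratinocyte slope, where 0 were called, the number called was 3 with the replicate block, 4 with limma voom, 1 with limma on log2(TPM + 1), 1 with DESeq2, 4 without Ecad female 4 and ΔEcad male 4 together, and 3 without ΔEcad female 3 as well. For the wound-edge slope, where 1 was called, it was 0 without a filter on low counts, 3 with the replicate block, 0 with the macrophage score in the model, 0 without the 2 tumours farthest from the median score, 4 with limma voom, 3 with limma on log2(TPM + 1) and 4 with DESeq2. It was 4 without Ecad female 4 and ΔEcad male 4, 4 without ΔEcad female 3 as well, 0 with a score without Slc2a1 and Gjb2, 0 with a score of Krt6a, Krt6b and Krt16, and 0 to 3 without single tumours. For the wound-edge slope with both scores, where 3 were called, it was 0 with the replicate block, 0 with scores from TPM, 0 without the 2 farthest tumours, 1 with limma voom, 0 with limma on log2(TPM + 1) and 7 with DESeq2. It was 0 without Ecad female 4 and ΔEcad male 4, 2 without ΔEcad female 3 as well, 2 with a score without Slc2a1 and Gjb2, 0 with the keratin score, and 0 to 3 without single tumours. The alternatives with pairs or 3 tumours left out and those with other wound-edge scores were chosen after seeing the data. The cause of these changes was not tested. Of all 17717 genes, limma voom called 6150 on the keratinocyte score and 5060 on the wound-edge score. DESeq2 called 3194 and 2115 in that order.

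Over all genes, calls ran from 1 (replicate block) to 1281 (DESeq2) for ΔEcad against Ecad females, against 213, and from 0 to 21 in males, against 0. They ran from 8 to 1023 and from 0 to 24 for the sexes in Ecad and ΔEcad tumours, against 9 and 7, from 0 to 1225 for the interaction, against 0, and from 8 to 735 for any group difference, against 56. For slopes they ran from 1378 to 6150 (keratinocyte, against 2045), 1024 to 5060 (wound-edge, against 1306) and 13 to 137 (both scores, against 38). The replicate numbers pair no tumours: 18 of 48 same-number pairs had a correlation over 0.1, and 1 of 32 tumours was closest to one with its own number. Low counts limit Ly6g, which was at or under 3 counts in 18 tumours and was not tested.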
